A study of Mus musculus with 12 samples.

Results

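Cd5 and Cd6 are neighbouring genes of the scavenger receptor cysteine-rich (SRCR) family that encode surface glycoproteins of T cells. They were taken from the deposited expression table by symbol, and each matched 1 row of the 10073 genes listed. Both passed the filter on low values that left 10021 genes for testing. The libraries held RNA of naive CD4 T cells from the spleen and lymph nodes of 3 untreated mice. Every animal carried the reporter transgene Tg(Nr4a1-EGFP)GY139Gsat and the Foxp3tm1Flv allele, a red fluorescent reporter of Foxp3, on a C57/BL6 background. In the transgene, regulatory sequence of Nr4a1 drives GFP, and because Nr4a1 is induced by T cell receptor (TCR) signalling, GFP reads recent signal. Sorted cells lacked the Foxp3 reporter and were CD44 low, and had no stimulation before lysis. From each mouse 4 populations were sorted by GFP and surface Ly6C. A (low GFP) and B (intermediate GFP) are labelled Ly6C positive, and C (intermediate GFP) and D (high GFP) Ly6C negative. Libraries are named by population and mouse number, so that B2 is population B of mouse 2. The sources used here do not give the age of the mice, and all animals carried both reporters, so no library without them was analysed here.

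CD5 and CD6 are close relatives whose outer parts are built of SRCR domains and whose tails are phosphorylated on tyrosine when the TCR is engaged. CD5 is known to restrain TCR signalling in thymocytes and T cells, and its surface level on thymocytes and naive T cells is widely used as a readout of how strongly a cell signals in response to self peptide. CD6 binds the adhesion molecule ALCAM, docks adaptors of the TCR pathway through its tail, and has been given both restraining and costimulatory roles.

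The number of reads that scales the RPKM values, as recovered from them, was 6.31 (A3) to 9.07 (C1) M, M standing for mega. The genes listed held 99.1% (C3) to 99.7% (C2) of it, so it need not count all reads sequenced. Of 10 markers of CD4 T cells, 7 were listed, and their summed level was 1498 (C3) to 1644 (D2) RPKM (reads per kilobase of gene per M reads). NK cell markers were not listed (0 of 7), and the listed B cell markers (2 of 13) summed to 6.69 to 28.2 RPKM in 11 libraries. C3 stood apart, with 247 RPKM of those B cell markers and 871 RPKM of the 4 listed of 7 plasma cell markers, against 22.4 to 34.3 RPKM elsewhere. The listed markers of monocytes, macrophages or dendritic cells (2 of 9) summed to 43.1 RPKM in C3 and 15.7 to 21.2 RPKM elsewhere. Of 2 CD8 T cell markers Cd8b1 was listed, at 12.7 to 16.0 RPKM in A and C and 9.94 to 11.5 RPKM in B and D. The part of these cells in the results was not tested. The listed erythroid markers, the globin genes Hba-a2 and Hbb-bs (2 of 5), summed to 8.13 to 22.4 RPKM in A1, B1, C2 and D2 and to 133 to 176 RPKM in the other 8 libraries, and their part in the results was not tested. A1 and B1 went against their labels on the transcript of the sorted reporter's parent gene: Nr4a1 was 35.97 RPKM in B1 against 57.7 in A1, whereas B2 and B3 had 73.3 and 64.6 RPKM against 26.1 and 22.9 in A2 and A3. Ly6c1, which encodes a Ly6C protein, went against the Ly6C gate in B and C: it was 64.6 ± 7.40 RPKM in A and 43.9 ± 6.53 in B, both labelled positive, and 64.3 ± 4.36 in C and 43.7 ± 5.10 in D, both labelled negative (SD, n = 3). A, B, C and D therefore stand for the libraries so labelled, directions between gates are those of the labels, and tests of Cd5 and Cd6 are also given without A1 and B1. Those libraries were singled out after their values were seen, so the p-values without them describe the other 10 libraries. The summed level of 5 listed markers of regulatory T cells, of 7 (Foxp3, Il2ra, Ikzf2, Ctla4 and Tnfrsf18), was high where Cd5 and Cd6 were high, apart from A1, where it was highest, and B1, where it was low. It was 63.2 RPKM in A1 and 25.5 to 27.1 in A2 and A3, 28.8 in B1 and 52.5 to 59.4 in B2 and B3, 24.9 to 28.5 in C, and 54.2 to 62.97 in D. Foxp3 itself was 3.25 to 3.999 RPKM in A1, B2, B3, D1, D2 and D3, and 1.15 to 1.53 RPKM in A2, A3, B1, C1, C2 and C3. The part of such cells in the results was not tested.

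The 250 bases before the start of Cd5 were read from RefSeq on the build GRCm38.p6 and are shown because Cd5, Cd6 and the gene between them on mouse chromosome 19 kept a like order over the libraries. They lie at chr19:10738975-10739224 and are written along the minus strand, 5′ to 3′, up to the base before the start. Between Cd5 and Cd6 lies the long noncoding RNA gene A430093F15Rik, on the other strand by GENCODE M21, whose 250 bases at chr19:10740697-10740946 (plus strand) are set beside them. Capitals mark E-boxes (CANNTG) and the ETS-type word GGAAGT, which adjoin in the second sequence.
Cd5: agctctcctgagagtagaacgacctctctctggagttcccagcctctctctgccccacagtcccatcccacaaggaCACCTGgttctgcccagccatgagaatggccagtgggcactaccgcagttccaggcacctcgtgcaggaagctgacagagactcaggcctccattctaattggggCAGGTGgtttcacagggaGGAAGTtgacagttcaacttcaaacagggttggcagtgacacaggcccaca
A430093F15Rik: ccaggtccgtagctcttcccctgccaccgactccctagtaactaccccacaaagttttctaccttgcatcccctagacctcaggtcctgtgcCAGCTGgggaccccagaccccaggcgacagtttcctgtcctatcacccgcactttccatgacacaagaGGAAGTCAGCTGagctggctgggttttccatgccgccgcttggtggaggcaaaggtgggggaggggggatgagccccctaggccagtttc
The Cd5 stretch held E-boxes beginning 174 and 69 bases before the start, both of the form CAGGTG on the plus or minus strand, and GGAAGT beginning 51 bases before it. Searched on both strands, CANNTG was found in 66.2% of 32851 promoter windows, CAGGTG, which is 1 form of it, in 17.2%, and GGAAGT in 19.7%. The shorter word GGAA, which GGAAGT contains, was present 4 times in the Cd5 stretch and in 93.5% of windows. Words for RUNX factors (TGTGGT, 14.1% of windows), a GC box (GGGCGG, 32.7%), NR4A receptors (AAGGTCA, 4.08%), EGR factors (GCGGGGGCG, 2.57%) and AP-1 (TGANTCA, 6.75%) were not among the letters of the Cd5 stretch.

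Cd5 (Entrez 12507, gene length 2069 bases) averaged 242 RPKM over the 12 libraries, above 98.6% of the genes listed. Its level was 241, 177 and 156 RPKM in A1, A2 and A3. It was 236, 332 and 305 RPKM in B1, B2 and B3. B1 lay below the other libraries of B and level with A1. It was 173, 190 and 165 RPKM in C1, C2 and C3, and 299, 309 and 322 RPKM in D1, D2 and D3. C and D did not overlap, as for 14.1% of genes with D the higher, and both were tight. Mean Cd5 was 191 ± 44.0 RPKM for A, 291 ± 49.2 for B, 176 ± 12.4 for C, and 309.6 ± 11.4 for D (SD, n = 3 mice each). The coefficient of variation among mice was 22.96% in A and 16.9% in B, against 7.03% in C and 3.68% in D, and the counting error of 2040 to 5898 recovered reads was 1.30% to 2.21%. That error covers the counting of reads only, since amplified reads are not independent molecules.

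Cd6 (Entrez 12511, gene length 3463 bases) averaged 146 RPKM, above 97.4% of the genes listed. Its level was 141, 108 and 98.2 RPKM in A1, A2 and A3, and 146, 192 and 183 RPKM in B1, B2 and B3. Again B1 and A1 lay close together, between the other libraries of A and of B. It was 109, 120 and 103 RPKM in C1, C2 and C3, and 175, 181 and 193 RPKM in D1, D2 and D3. Mean Cd6 was 116 ± 22.7 RPKM for A, 174 ± 24.7 for B, 111 ± 8.87 for C, and 183 ± 9.36 for D (SD, n = 3 mice each). Counting error, from 2146 to 5801 recovered reads, was 1.31% to 2.16%. In these bulk samples, fewer cells with the transcript and less transcript per cell cannot be told apart.

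**Figure D1:**
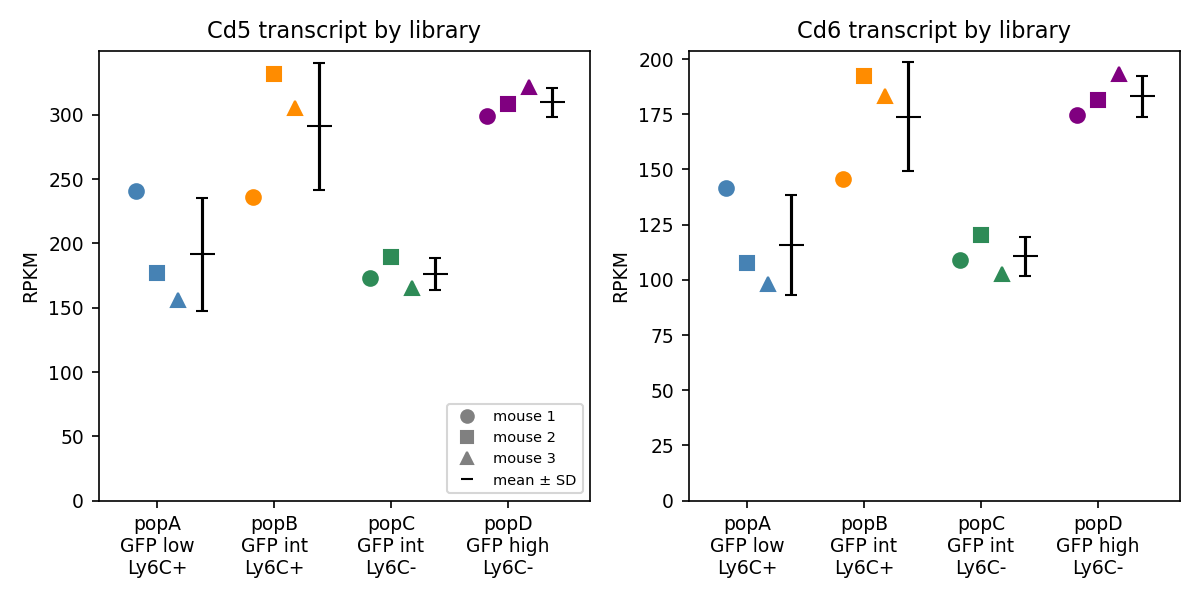
Level of Cd5 (left) and Cd6 (right) in RPKM in each of the 12 libraries, by sorted population (popA to popD, with their GFP and Ly6C gates). Symbols are mice 1 to 3, and bars give the mean ± SD of 3 libraries. For Cd5, D libraries sit at 299 to 322 RPKM and C libraries at 165 to 190, while A1 and B1 sit level at 241 and 236.

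Ordered by level, the 12 libraries fell into the same sets for both genes. The highest 5 were D1, D2, D3, B2 and B3, and among them neighbours differed by at most 4.20% for Cd5 and 4.97% for Cd6. D1, the lowest of those, stood 24.1% above the next library for Cd5 and 19.9% for Cd6. A1 and B1 came next, within 1.87% of each other for Cd5 and 3.13% for Cd6. They stood 24.6% (Cd5) and 17.5% (Cd6) above C2, which led the remaining 5 libraries A2, A3, C1, C2 and C3. By population means the order for Cd5 and Cd6 alike was D, B, A, C. D and B, and likewise A and C, lay within the spread of their libraries.

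Population B against population A compares cells labelled GFP intermediate with cells labelled GFP low, both labelled Ly6C positive. Cd5 was 1.53-fold higher in B than in A (log2 difference 0.61 ± 0.14 SE, 95% interval 0.30 to 0.93, adjusted p = 0.0487), and Cd6 was 1.51-fold higher (0.59 ± 0.13, 0.32 to 0.87, adjusted p = 0.0463). Both passed the threshold in a comparison in which 2.23% of genes did (0.569% as higher in B). The rise came from the libraries numbered 2 and 3. Paired by the mouse numbers of the labels, the Cd5 difference was -0.03, 0.90 and 0.96 in mice 1, 2 and 3, so B was higher in 2 of 3. The Cd6 difference was 0.04, 0.84 and 0.90, higher in 3 of 3. Libraries of the same number were not more alike than others (mean correlation of deviations -0.072 against 0.032). That limits these and the later values by mouse. The libraries of B and A overlapped for Cd5. They did not overlap for Cd6, as for 13.4% of genes in that direction, which alone makes B the higher in 3 of 3 mice. The calls were lost with mouse number as a block (adjusted p = 0.0807 for Cd5 and 0.0711 for Cd6, fixed; 0.0589 for both, random). They were also lost without A2, A3, B2, B3, C2, D1, D2 or D3, where the adjusted p was 0.0589 to 0.163 for Cd5 and 0.0505 to 0.151 for Cd6. Without A1 and B1 the differences were 0.93 ± 0.08 for Cd5 (adjusted p = 5.6e-05) and 0.87 ± 0.08 for Cd6 (8.2e-05), where 10.9% of genes were called.

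Population D against population C compares cells labelled GFP high with cells labelled GFP intermediate, both labelled Ly6C negative. Cd5 was 1.76-fold higher in D than in C (log2 difference 0.81 ± 0.14, 95% interval 0.50 to 1.13), and Cd6 was 1.65-fold higher (0.72 ± 0.13, 0.45 to 1.00). By mouse, the Cd5 difference was 0.79, 0.70 and 0.96, and the Cd6 difference 0.68, 0.59 and 0.91. Neither gene's libraries overlapped between D and C, as for 14.1% of genes in that direction. Over the 12 libraries neither passed (adjusted p = 0.106 for both). In that fit 0.00998% of genes were called, which is 1 gene, while 1817 had an unadjusted p under 0.05. Ranked by p, Cd6 stood at 4 and Cd5 at 5 of 10021 genes. The SE in that fit includes the spread of A and B. Fitted on the 6 libraries of C and D alone, with 4.8% of genes called, the SE of Cd5 was 0.06 and that of Cd6 0.07, and both passed (adjusted p = 0.000165 for Cd5 and 0.000649 for Cd6). They also passed without A1 (adjusted p = 0.0272 for both, 288 of 10021 genes called), without B1 (0.0229 for both, 398 called) and without A1 and B1 together (2.4e-05 for Cd5 and 5.2e-05 for Cd6, 7.63% of genes called). Without C3, the library with B and plasma cell markers, the differences were 0.77 for Cd5 and 0.67 for Cd6 (adjusted p = 0.175 for both).

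**Figure D2:**
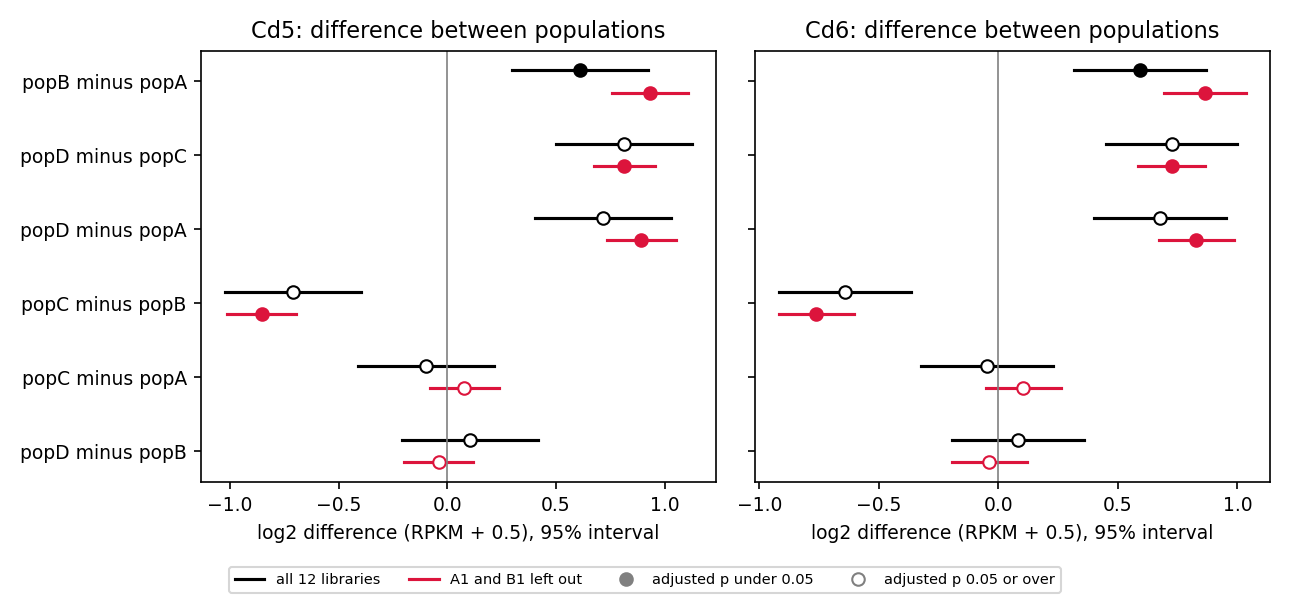
Log2 difference of Cd5 (left) and Cd6 (right) between populations, each named as the first minus the second, with its 95% interval from limma. Black is the fit on all 12 libraries and red the fit without A1 and B1, and filled points have an adjusted p under 0.05. The intervals of B minus A, D minus C and D minus A lie above 0 and those of C minus B below it, while those of C minus A and D minus B include 0.

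Populations C and B were both labelled GFP intermediate and differ by label in Ly6C, whose transcript Ly6c1 was the higher in C. Cd5 was lower in C than in B by label (log2 difference -0.71 ± 0.14, 95% interval -1.02 to -0.40), as was Cd6 (-0.64 ± 0.13, -0.92 to -0.37). The libraries of C and B did not overlap for either gene, as for 8.83% of genes in that direction. That alone makes C the lower in 3 of 3 mice, however paired. Neither passed over the 12 libraries (adjusted p = 0.253 for both), where 0.00998% of genes did. In the 6 libraries of C and B alone neither passed either (adjusted p = 0.468 for both, 0 of 10021 genes called). Both passed without B1 (adjusted p = 0.0257 for both, 386 of 10021 genes called) and without A1 and B1 (-0.85, adjusted p = 5.3e-05 for Cd5, and -0.76, 0.000103 for Cd6, 7.74% of genes called). The transcript of Nr4a1 lay likewise at 23.4 to 28.3 RPKM in C, against 36.0 to 73.3 RPKM in B.

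Population D against population A compares the highest with the lowest GFP gate by label. Cd5 was 1.64-fold higher in D than in A (0.72 ± 0.14, 95% interval 0.40 to 1.03) and Cd6 1.60-fold higher (0.68 ± 0.13, 0.40 to 0.95). The libraries of D and A did not overlap, as for 14.1% of genes in that direction, which alone makes D the higher in 3 of 3 mice. In mouse 1 the differences were 0.31 for Cd5 and 0.30 for Cd6, against 0.75 to 1.04 in mice 2 and 3. Neither passed over 12 libraries (adjusted p = 0.151 for both, 0.00998% of genes called). Neither passed in the 6 libraries of D and A alone (adjusted p = 0.0797 for Cd5 and 0.0790 for Cd6, 3 of 10021 genes called). Both passed without A1 (0.0297 for both, 362 of 10021 genes called) and without A1 and B1 (0.89, adjusted p = 3.4e-05 for Cd5, and 0.83, 5.4e-05 for Cd6, 8.84% of genes called). The comparisons share libraries, so they are not independent of each other.

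Between C and A, and between D and B, the intervals included 0. C minus A was -0.10 for Cd5 (95% interval -0.41 to 0.21, adjusted p = 0.762) and -0.05 for Cd6 (-0.32 to 0.23, adjusted p = 0.876). D minus B was 0.10 for Cd5 (-0.21 to 0.42, adjusted p = 0.974) and 0.08 for Cd6 (-0.19 to 0.36, adjusted p = 0.978). In these comparisons 0.0% of genes were called, by limma-voom on the recovered reads too, although 1422 (C minus A) and 410 (D minus B) had an unadjusted p under 0.05. The populations are not shown to be equal by these values. The D minus C step exceeded the B minus A step by 0.20 ± 0.20 for Cd5 (95% interval -0.24 to 0.64, adjusted p = 0.644) and by 0.13 ± 0.18 for Cd6 (-0.26 to 0.52, adjusted p = 0.741), and without A1 and B1 those values were -0.12 and -0.14. Over the 4 populations at once, F was 16.7 for Cd5 and 18.2 for Cd6 (adjusted p = 0.114 for both, 0.00998% of genes called), and 100.9 and 85.3 without A1 and B1 (adjusted p = 1.3e-05 and 2.4e-05, 9.63% of genes called).

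The ratio of Cd5 to Cd6, which length-scaled values allow within a library, stayed between 1.58 (C2) and 1.72 (B2). It was 1.70, 1.65 and 1.59 in A1, A2 and A3, and 1.62, 1.72 and 1.66 in B1, B2 and B3. It was 1.59, 1.58 and 1.61 in C1, C2 and C3, and 1.71, 1.70 and 1.66 in D1, D2 and D3. All 3 ratios in D lay above those in C, whereas A spanned nearly the whole range. The mean ratio was 1.65 ± 0.056 for A, 1.67 ± 0.052 for B, 1.59 ± 0.017 for C, and 1.69 ± 0.025 for D (SD, n = 3). The log2 ratio was not told apart between populations (F = 3.48, exact permutation p = 0.085 over 369600 arrangements; p = 0.142 with labels permuted within mice). It passed without A1 (exact permutation p = 0.0458), without A3 (0.0492) and without A1 and B1 (0.0238).

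**Figure D3:**
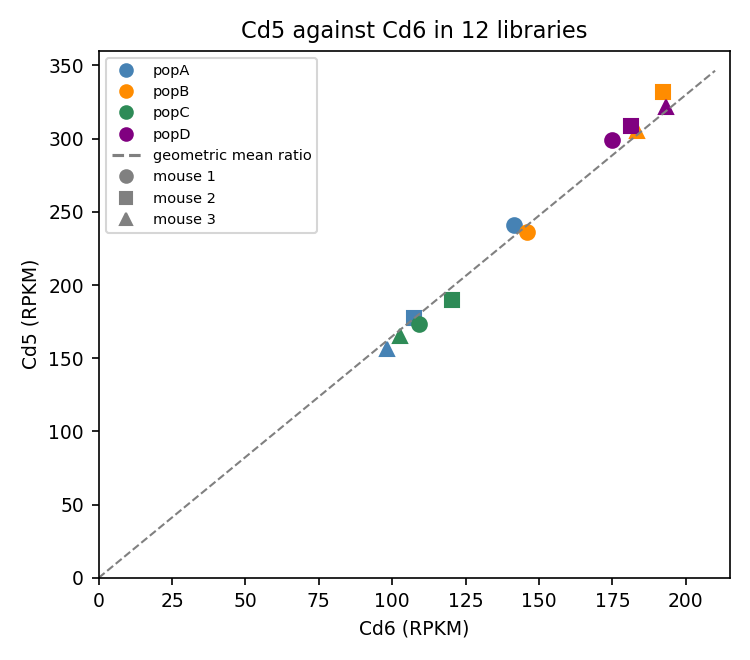
Cd5 against Cd6 in RPKM in the 12 libraries, coloured by population and shaped by mouse. The dashed line is the geometric mean of their ratio. The libraries lie along the line in 3 stretches, with A1 and B1 in the middle one at 236 to 241 RPKM of Cd5.

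Cd6 was the gene most like Cd5, and Cd5 the gene most like Cd6, among 7794 genes whose mean reached 5 RPKM (Pearson r = 0.998 over log2 levels in 12 libraries). Over deviations from the population means r was 0.992, again the highest for each. For both genes A1 lay above the other libraries of A, and B1 below those of B. These libraries weigh on r, which was not taken without them. The 12 libraries come from 3 mice and each point's values share a library and its depth, so these are descriptions. For Cd5, 183 genes had r above 0.9 and 60 below -0.9, and for Cd6 171 and 49. Clone names aside, Cyth4 came next for both. Cyth4, which encodes cytohesin 4, an exchange factor for ARF GTPases, had r of 0.991 with Cd5 and 0.988 with Cd6, and its level was 33.0 ± 1.21 RPKM in D, 23.6 ± 1.41 in C, 31.1 ± 3.82 in B and 24.98 ± 3.67 in A. The sorting receptor Sorl1 had r of 0.988 with Cd5 and 0.980 with Cd6, and Tbc1d2b 0.987 and 0.983. The de novo DNA methyltransferase Dnmt3a had 0.986 and 0.978, with 18.2 ± 0.417 RPKM in D, 12.7 ± 0.175 in C, 17.2 ± 2.05 in B and 13.4 ± 2.68 in A. The zinc finger gene Hivep2 had 0.983 and 0.986, the Argonaute gene Ago1 0.979 and 0.978, and the ATP-gated channel P2rx7 0.975 and 0.970. Nr4a1, the parent gene of the sorted reporter, had 0.977 with Cd5 and was among its 8 most alike. With Cd6 it had 0.966 (rank 16 of 7794 genes). Dedd2, 0.973 with Cd6, was among the 8 most like Cd6. Most opposite to both was the adhesion gene Amigo2, with r of -0.975 with Cd5 and -0.969 with Cd6 and 11.4 ± 0.512 RPKM in D against 16.1 ± 1.01 in C. Next came the protease gene Adamts14 (-0.959 and -0.950) and Dpy19l1 (-0.954 and -0.949), then Thy1, a surface glycoprotein of T cells, for Cd5 (-0.954) and the deubiquitinase Otud1 for Cd6 (-0.949). Thy1 was 302 ± 6.06 RPKM in D against 398 ± 4.92 in C. None of these named genes passed over 12 libraries in D minus C or in B minus A.

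A430093F15Rik, whose promoter is printed above and which was chosen after its values were seen, had a lower level and a similar order of libraries. It was 20.5, 19.97 and 24.5 RPKM in D1, D2 and D3, against 6.04, 5.85 and 7.47 in C1, C2 and C3. It was 8.38, 25.2 and 24.2 RPKM in B1, B2 and B3, against 17.1, 6.26 and 5.33 in A1, A2 and A3. D and C did not overlap, as for 14.1% of genes in that direction, and B and A did. The log2 differences were 1.67 ± 0.42 for D minus C (adjusted p = 0.106) and 1.01 ± 0.42 for B minus A (adjusted p = 0.174). Without A1, D minus C was 1.67 (adjusted p = 0.0326) and B minus A 1.502 (0.0498), and without B1 they were 1.67 (0.0229) and 1.51 (0.04999). Both thus passed when either of those libraries was left out. Of 10021 genes, 288 (D minus C) and 237 (B minus A) were called without A1, and 398 and 222 without B1. For this gene A1 was the highest library of A and B1 the lowest of B, so leaving either out raises B minus A. Both differences also passed without A1 and B1 together (1.67, adjusted p = 6.1e-06, and 2.00, 9.3e-06), and D minus C passed in the 6 libraries of D and C (adjusted p = 0.000111). Its r was 0.955 with Cd5, rank 36 of 7794, and 0.942 with Cd6, rank 59. By the starts printed above, Cd5 and A430093F15Rik run away from each other and do not overlap. The sources used here do not say whether counting used strand. Reads of A430093F15Rik and those of Cd6 on the other strand therefore cannot be told apart where these genes overlap. Of 10 further neighbours, 5 on each side, 3 were listed. Vps37c, an ESCRT gene beside Cd5, was 10.5 to 13.6 RPKM, with differences of 0.11 ± 0.08 for D minus C (adjusted p = 0.475) and 0.18 ± 0.08 for B minus A (adjusted p = 0.192). Tmem109 was 8.94 to 16.1 RPKM and the splicing factor Prpf19 14.8 to 17.0 RPKM. Their differences were -0.27 ± 0.16 and 0.02 ± 0.07 for D minus C and 0.02 ± 0.16 and -0.02 ± 0.07 for B minus A, with adjusted p from 0.395 to 0.959.

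**Figure D4:**
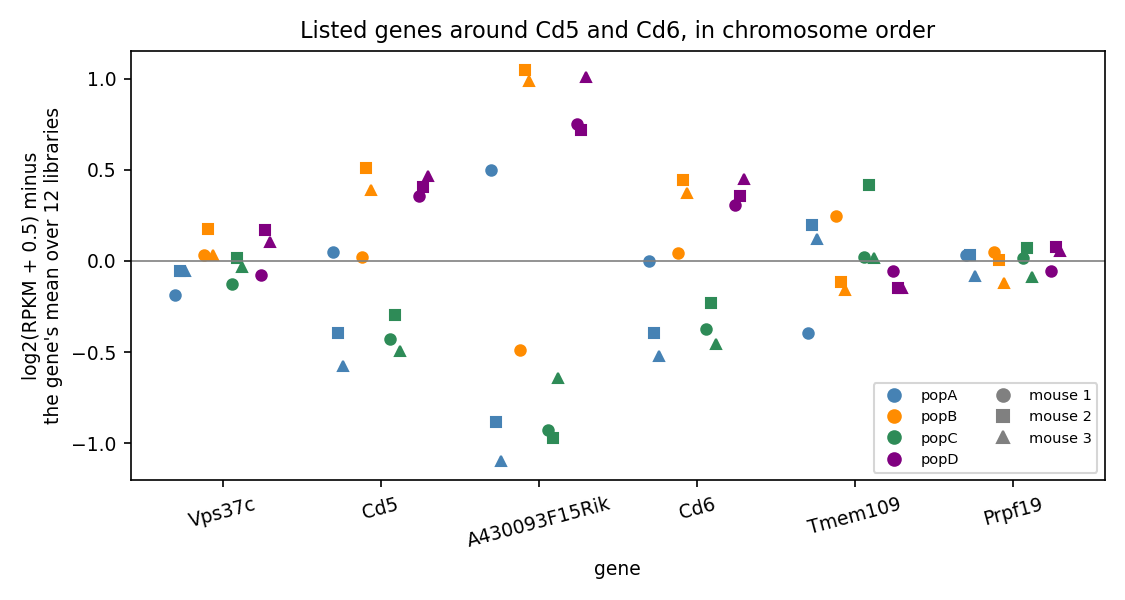
Level of each listed gene around Cd5 and Cd6 as log2(RPKM + 0.5) minus the gene's mean over 12 libraries, in chromosome order, by population (colour) and mouse (shape). Cd5, A430093F15Rik and Cd6 separate D libraries (above 0) from C libraries (below 0), while for Vps37c and Prpf19 the D and C libraries overlap and for Tmem109 the D libraries lie below those of C.

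The genes of 28 enzymes and adaptors that bind or act on the CD5 and CD6 tails were all tested, and none passed over 12 libraries in any of the pairwise comparisons of D with C, B with A, C with B or D with A. Their median difference was 0.09 for D minus C and 0.08 for B minus A, against 0.01 for all genes in both, and 12 (D minus C) and 11 (B minus A) had an unadjusted p under 0.05, as had 18.1% and 23.1% of all genes. Limma-voom also called 0. In the fit of the 6 libraries of D and C, where 4.8% of genes were called, 5 were higher in D and 1 lower. Tiam1, an exchange factor for RAC, was 3.58 ± 0.271 RPKM in D and 1.18 ± 0.178 in C (log2 difference 1.28, adjusted p = 0.000657). Rasa1, the RasGAP reported to bind CD5, was 36.5 ± 0.401 RPKM in D and 25.9 ± 1.79 in C (0.49, 0.00283). The ubiquitin ligase gene Cblb was 25.4 ± 0.452 RPKM in D and 19.6 ± 0.462 in C (0.36, 0.00623). The phosphatase gene Ubash3b was 16.0 ± 1.001 RPKM in D and 9.39 ± 1.52 in C (0.75, 0.0083), and the Src-family kinase gene Fyn was 144 ± 1.65 RPKM in D and 116 ± 8.47 in C (0.31, 0.0211). Grap2, the adaptor GADS, was 167 ± 2.89 RPKM in D and 197 ± 8.62 in C (-0.24, 0.0255). Other partners did not pass: the kinase gene Lck was 371 ± 23.4 RPKM in D and 356 ± 17.1 in C, Ptpn6, the phosphatase SHP-1, 107 ± 8.10 in D and 107 ± 9.07 in C, and Csk, which inhibits Src-family kinases, 125 ± 3.42 in D and 127 ± 5.31 in C.

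Between B and A the same 6 genes did not pass, with the mouse 1 libraries in the means. Rasa1 was 32.6 ± 4.38 RPKM in B and 34.98 ± 6.48 in A, and Tiam1 2.65 ± 1.32 in B and 1.98 ± 1.17 in A. In the 6 libraries of B and A, 1 of the 28 passed (3.79% of genes called): the adaptor gene Nck1, lower in B, at 17.5 ± 0.534 RPKM against 20.95 ± 0.944 in A. Over 12 libraries its difference was -0.25 ± 0.08 (adjusted p = 0.0969), and that of the exchange factor gene Vav1 was 0.13 ± 0.05 (adjusted p = 0.128). Between D and A, Fyn differed by 0.26 ± 0.07 and Zap70, the kinase that binds the TCR chains, by 0.25 ± 0.07 (adjusted p = 0.151 and 0.154). Without A1 and B1, 5 of the 28 were higher and 1 lower in B minus A, and 7 higher and 2 lower in D minus C, where 10.9% (B minus A) and 7.63% (D minus C) of all genes were called.

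**Figure D5:**
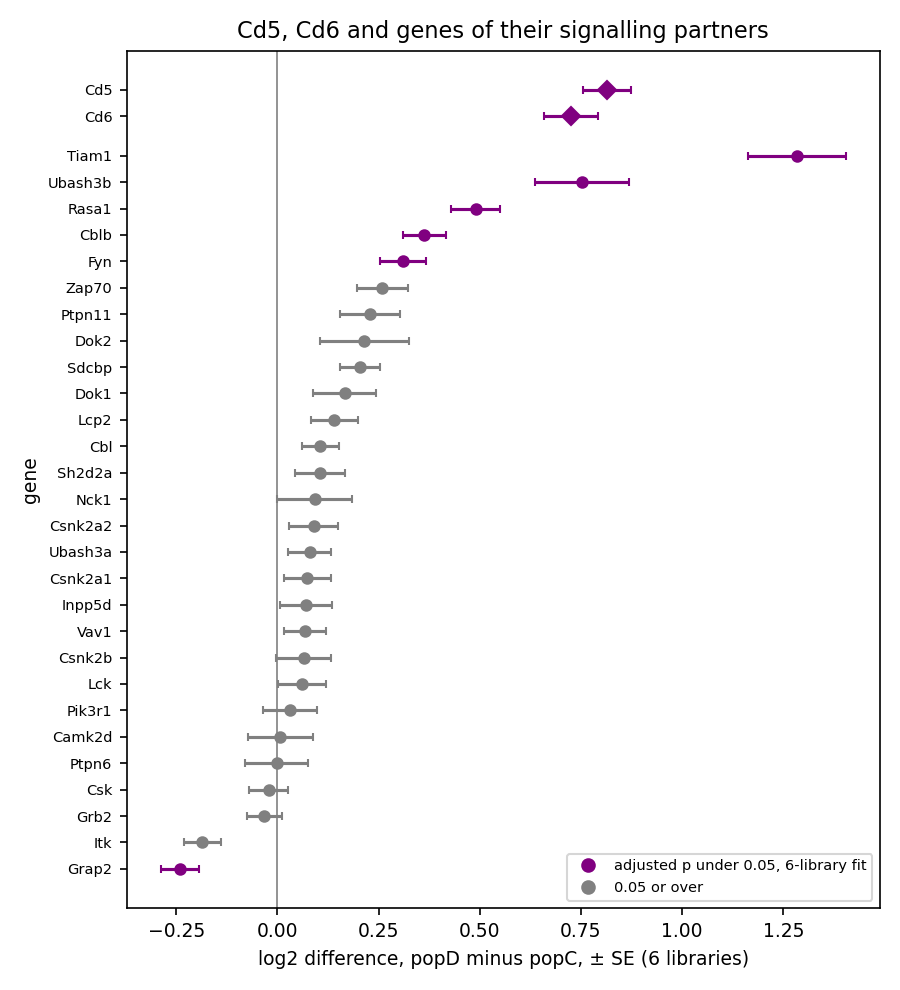
Log2 difference of D minus C in the fit of those 6 libraries, ± SE, for Cd5 and Cd6 (diamonds) and for 28 genes of enzymes and adaptors that act with their tails (circles). Coloured points have an adjusted p under 0.05 over all genes tested. Tiam1 stands at 1.28, Cd5 at 0.81, Cd6 at 0.72 and Grap2 at -0.24.

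Of the genes of 3 ligands described for CD5 or CD6, 2 were listed. Alcam, which encodes the ligand of CD6, was 1.01, 1.02 and 1.20 RPKM in the 3 libraries of D, against 0.040, 0.027 and 5.92 in C1, C2 and C3. It was 0.055, 1.34 and 1.13 RPKM in B1, B2 and B3, against 1.36, 0.041 and 0.116 in A1, A2 and A3. Leaving C3 aside, Alcam was near 1 RPKM in the libraries D1 to D3, B2, B3 and A1 and near 0 in the others, and no difference passed (D minus C 0.37 ± 0.83, adjusted p = 0.861). C3 is the library with B and plasma cell markers, whose part in its Alcam level was not tested. Cd72, a B cell protein described as a CD5 ligand, was 12.4 to 18.6 RPKM. Of 28 genes with an SRCR domain on the list, 6 were listed: besides Cd5 and Cd6 these were Lgals3bp, a secreted glycoprotein, at 34.7 to 48.7 RPKM, Prss12 at 1.48 to 2.64, the haemoglobin scavenger receptor Cd163 at 0.584 to 1.96 and Dmbt1 at 0.535 to 1.16. None of those 4 passed in any comparison. Lgals3bp was 42.3 ± 2.41 RPKM in D and 45.2 ± 2.51 in C, and 46.9 ± 1.69 in B and 40.7 ± 5.46 in A.

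Other genes of the pathway were described by list, and their counts are read against those of all genes. In D minus C, 0.00998% of all genes were called over 12 libraries, 18.1% had an unadjusted p under 0.05, and 4.8% were called in the 6 libraries of D and C (3.35% as higher in D and 1.45% as lower). In B minus A, 2.23% were called over 12 libraries, 23.1% had an unadjusted p under 0.05, and 3.79% were called in the 6 libraries of B and A (0.609% as higher in B and 3.18% as lower).

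Over 12 libraries, 0 of 27 genes of the TCR complex and its proximal signalling passed in D minus C or B minus A, with medians of 0.05 and 0.01, and 11 and 9 had an unadjusted p under 0.05. In the 6 libraries of D and C, where 4.8% of genes were called, 2 were higher, Fyn and the costimulatory receptor gene Cd28 (77.5 ± 5.82 RPKM in D and 55.0 ± 5.51 in C), and 1 lower, Grap2. In the 6 libraries of B and A, 0 were higher and 2 lower: Nck1, and Themis, which encodes a protein of the proximal TCR pathway, at 23.3 ± 0.973 RPKM in B and 29.7 ± 1.11 in A. Without A1 and B1, 3 were higher and 3 lower in B minus A (10.9% of genes called). In D minus C, 4 were then higher and 4 lower (7.63% of genes called).

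Of 33 tested genes of the early response to TCR signals, 0 passed over 12 libraries in D minus C or B minus A, and 20 and 8 had an unadjusted p under 0.05. In the 6 libraries of D and C, where 4.8% of genes were called, 14 were higher and 1 lower. The TNF receptor gene Tnfrsf9, with the largest difference of the list (3.47), was 22.2 ± 2.77 RPKM in D and 1.54 ± 0.143 in C. Cd40lg, the CD40 ligand, was the lower one, at 80.8 ± 4.79 in D and 104.6 ± 0.260 in C. Not all of the list rose: Jun (-0.30), Junb (-0.26), Ier2 (-0.25) and Myc (-0.24) had lower means in D. Cd69 and Fos differed by -0.03 and -0.02. None of these passed in the 6 libraries of D and C. Among the B and A libraries alone 0 passed, and without A1 and B1, where 10.9% of genes were called in B minus A, 15 were higher in B and 1 lower. In D minus C without A1 and B1, where 7.63% of genes were called, 14 were higher in D and 3 lower.

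Of 13 tested genes of inhibitory receptors, 0 passed over 12 libraries in D minus C or B minus A, and 9 and 2 had an unadjusted p under 0.05. In the 6 libraries of D and C, where 4.8% of genes were called, 6 were higher and 1 lower. Pdcd1, the receptor PD-1, was 9.72 ± 1.02 RPKM in D and 1.68 ± 0.136 in C, and Lair1 was the lower one, at 1.79 ± 0.203 in D and 3.04 ± 0.530 in C. The 6 libraries of B and A gave 0, and without A1 and B1, where 10.9% of genes were called in B minus A, 6 were higher in B and 1 lower. In D minus C without A1 and B1, where 7.63% of genes were called, 7 were higher in D and 2 lower. Tnfrsf9 and Ctla4 are also high in regulatory T cells, whose summed markers are given above.

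Of 18 genes of T cell identity factors and of factors described at the promoters of Cd5 or Cd6, 0 passed over 12 libraries, and 5 had an unadjusted p under 0.05 in D minus C and 5 in B minus A. In the 6 libraries of D and C, where 4.8% of genes were called, 1 was higher and 1 lower. Id3, an inhibitor of the E proteins that bind E-boxes, was 43.8 ± 4.68 RPKM in D and 24.7 ± 1.12 in C (log2 difference 0.81, adjusted p = 0.0009 in 6 libraries). Runx3 was 18.4 ± 1.38 RPKM in D and 23.5 ± 0.873 in C (-0.35, 0.0263). Fitted on the 6 libraries of B and A, 0 passed. Without A1 and B1, 2 were higher and 2 lower in B minus A (10.9% of genes called). In D minus C, 1 was then higher and 1 lower (7.63% of genes called).

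Of 13 genes of the naive state and of homing, 1 passed over 12 libraries: Ly6c1 was lower in B than in A (log2 difference -0.55, adjusted p = 0.0452), at the values given above. That call was lost with the fixed block (0.0671) and without A2, A3, B2, B3, C2 or D2 (0.0584 to 0.151). In the 6 libraries of B and A it was again the 1 gene of the list that passed (adjusted p = 0.0444). In D minus C, 0 passed over 12 libraries and 7 had an unadjusted p under 0.05. Fitted on the 6 libraries of D and C, where 4.8% of genes were called, 5 were lower in D and 0 higher. Il7r, the interleukin-7 receptor, was 81.8 ± 4.38 RPKM in D and 138.99 ± 14.1 in C (-0.76). Without A1 and B1, 0 were higher and 4 lower in B minus A (10.9% of genes called). In D minus C, 0 were then higher and 5 lower (7.63% of genes called).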

How the data were processed

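RNA was measured in 12 libraries, 4 sorted populations from each of 3 mice. Per the labels' protocols, RNA isolated by the Quick-RNA MicroPrep kit was made into libraries with the SMART-seq v4 and NexteraXT kits. The authors deposited RPKM per gene, per the file headers. The submitters' processing notes name STAR, mm9 and mm10, so no gene coordinates of the files are printed, and the sources used here do not give the counting tool or its use of strand. Depth was the number that turned RPKM times length into whole reads, which held to within 0.1 read for 100% of 5701 to 6867 values per library, and 7 values were 0.

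Genes whose mean reached 0.5 RPKM were tested on log2(RPKM + 0.5) in all 12 libraries with no block, by limma 3.58.1 (R 4.3.3) with its mean-variance trend. P-values are two-sided and adjusted by the Benjamini-Hochberg method over all 10021 genes in each comparison, with 0.05 as the threshold. The log2 scale with a pseudocount understates changes of low genes. The Cd5 to Cd6 ratio was tested by an exact permutation test in Python 3.11.15. Likeness was Pearson's r on the log2 scale, and the 8 most alike and the 4 most opposite genes of each were named, leaving out clone names. From each gene list up to 4 members past the threshold in a comparison, otherwise at most 2 as values, were named in order of p, and others were named after their values were seen. The members and lists were chosen with earlier results of these data known.

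The labels give libraries of 1 mouse the same number. Checked on deviations from the population means, such libraries had a mean correlation of -0.072 (-0.613 to 0.379, 1 of 18 pairs over 0.1), against 0.032 for different numbers, and the block was an alternative. Others were pseudocounts of 0.1 and 1, no filter, a minimum mean of 5 RPKM, quantile normalization, median rescaling, the 6 libraries of a pair alone, no trend, robust moderation, removal of a GC and length trend (GENCODE M21 transcripts, found for 9846 genes, 98.3%), limma-voom on the recovered reads, and each library left out. Leaving out A1 and B1 together was chosen after seeing the data. The fits and the depth recovery were tested on simulated data. Of Cd5 and Cd6, a promoter entry was found for Cd5.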

Additional observations from a re-analysis of the deposited data

How the results depend on the processing

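Counting error of at most 2.21% for Cd5 and Cd6 covers reads only. Each population had 3 mice, A1 and B1 went against Nr4a1, C3 carried B and plasma cell markers, and Ly6c1 went against the gate in B and C. Cd5 and Cd6 were higher in B than in A under every setting run, but the call did not hold in many: quantile normalization (Cd5 0.64, adjusted p = 0.0596), the 6 libraries of B and A (Cd5 0.61, 0.0926; Cd6 0.59, 0.0699), the replicate block (Cd5 0.61, 0.0807 fixed and 0.0589 random; Cd6 0.59, 0.0711 and 0.0589), no trend (0.61, 0.0757; 0.59, 0.0712), robust moderation (Cd5 0.61, 0.0606), GC and length removed (0.50, 0.214; 0.59, 0.112) and that with the block (0.50, 0.303; 0.59, 0.188). The cause was not tested. The block changed no other call of Cd5 or Cd6. The number of genes called in B minus A ran from 0 (without A2, B2 or B3) to 1094 (without A1 and B1), with 2 under either block, 3 with GC and length removed or with no trend, 322 by limma-voom, and 461 without C1 or without C3.

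Leaving out each library in turn, B minus A was 0.48 to 0.79 for Cd5 (adjusted p from 0.0339 to 0.163) and 0.48 to 0.74 for Cd6 (0.0291 to 0.151). D minus C was 0.77 to 0.87 and 0.67 to 0.79, C minus B -0.85 to -0.61 and -0.76 to -0.56, D minus A 0.58 to 0.89 and 0.57 to 0.83, C minus A -0.23 to 0.078 and -0.16 to 0.10, and D minus B -0.039 to 0.20 and -0.038 to 0.16. The difference of steps was 0.025 to 0.34 and -0.020 to 0.24, F was 13.1 to 34.6 and 14.3 to 35.7, and F of the ratio was 2.09 to 5.12. F passed without A1 (34.6 and 35.7), B1 (25.03 and 25.9) or C1 (13.4 and 14.8), and C minus A turned positive without A1 (0.078 and 0.10) and, for Cd6, without C3 (0.0035).

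Calls gained in the 6 libraries of D and C were 0.81 for Cd5 and 0.72 for Cd6. Without A1 and B1 they were those and -0.85 and -0.76 in C minus B, 0.89 and 0.83 in D minus A, F of 100.9 and 85.3, and F of 8.42 for the ratio. Signs turned without A1 and B1 in C minus A (0.078 and 0.10), D minus B (-0.039 and -0.038) and the difference of steps (-0.12 and -0.14), all with intervals that include 0.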
